A study of Homo sapiens with 12 samples.

Results

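The 37 genes described here are known imprinted genes, taken by symbol from a table of 63241 genes measured in 12 libraries of human testicular germ cell tumour lines. Of these, 36 had at least 10 counts summed over all libraries, and RTL1, with 1 count, was left out. At the edge of that limit MAGEL2 had exactly 10 counts. A filter on low counts passed 30 of the 36, among 15614 genes of the whole table, and these were tested. The other 6 were KCNQ1, ZIM2, MAGEL2, DDC, NNAT and HYMAI, which are given as counts.

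The study asked whether BRD9 inhibition could serve as a treatment of these tumours. 2102 EP is an embryonal carcinoma line, whose cells resemble pluripotent stem cells, and TCam-2 is a seminoma line, whose cells resemble primordial germ cells. Each was kept for 24 h with 15 µM I-BRD9, a compound that blocks the acetyl-lysine reading domain of BRD9, which belongs to the non-canonical BAF complex of chromatin remodellers, or with DMSO, the solvent. Both lines are labelled wild type, the medium was DMEM for 2102 EP but RPMI for TCam-2, and each of the 4 groups holds 3 libraries of total RNA made with a 3′ end kit. Each histological type is represented by 1 line, so line, tumour type and medium cannot be told apart. The labels call the replicates biological without saying how the cultures were kept apart, so the p-values measure the spread between these samples, which may be technical.

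An imprinted gene is transcribed mainly from the copy inherited from 1 parent. The choice is carried by DNA methylation at imprinting control regions, laid down in the germ line of one parent and kept in the embryo by KRAB zinc finger proteins such as ZFP57 and ZNF445, which recruit TRIM28, SETDB1 and DNA methyltransferases. Primordial germ cells erase these marks before sperm and eggs are formed. Many imprinted genes act on growth: paternally expressed ones such as IGF2 commonly favour it and maternally expressed ones such as H19 and PHLDA2 commonly restrain it. The counts used here do not distinguish the parental copies, so a change in level says nothing about which copy was transcribed. Among the 30 tested genes, 17 are grouped here as paternally expressed, 6 as maternally expressed and 7 as of mixed or tissue-dependent choice.

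The sequences below are the 250 bases before an annotated start of 5 members, from RefSeq on GRCh38.p14. H19 was chosen because it fell in both lines, and DIO3 and SNRPN because they moved in opposite directions. MEG3 was at or near 0 in 1 line. PLAGL1 differed most in response among the members with more than 3 counts in every group. Capitals mark TGCCGC, the core of the motif bound by ZFP57, or its reverse complement GCGGCA, on either strand. They are read from chr11:2001267-2001516 (minus strand, H19), chr14:101561245-101561494 (plus strand, DIO3), chr14:100825858-100826107 (plus strand, MEG3), chr15:24954737-24954986 (plus strand, SNRPN, the same window as SNURF) and chr6:144008260-144008509 (minus strand, PLAGL1, the same window as HYMAI).
H19: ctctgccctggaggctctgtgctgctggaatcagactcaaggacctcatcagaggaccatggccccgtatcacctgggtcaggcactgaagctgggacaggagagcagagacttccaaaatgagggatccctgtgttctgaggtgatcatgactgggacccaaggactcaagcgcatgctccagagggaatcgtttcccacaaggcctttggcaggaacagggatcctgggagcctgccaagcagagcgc
DIO3: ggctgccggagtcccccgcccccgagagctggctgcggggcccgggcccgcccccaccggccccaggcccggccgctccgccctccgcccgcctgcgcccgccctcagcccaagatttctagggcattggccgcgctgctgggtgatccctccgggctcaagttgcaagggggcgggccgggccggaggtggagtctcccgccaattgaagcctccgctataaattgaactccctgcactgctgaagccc
MEG3: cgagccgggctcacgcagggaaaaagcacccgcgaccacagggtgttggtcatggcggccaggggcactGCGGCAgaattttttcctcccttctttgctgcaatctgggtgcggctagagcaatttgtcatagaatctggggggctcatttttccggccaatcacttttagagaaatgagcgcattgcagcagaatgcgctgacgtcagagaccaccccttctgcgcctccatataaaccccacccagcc
SNRPN: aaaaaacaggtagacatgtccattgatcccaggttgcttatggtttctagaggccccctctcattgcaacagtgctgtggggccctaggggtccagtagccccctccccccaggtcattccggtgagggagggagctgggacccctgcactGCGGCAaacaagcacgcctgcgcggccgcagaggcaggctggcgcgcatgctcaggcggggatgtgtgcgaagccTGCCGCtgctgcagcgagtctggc
PLAGL1: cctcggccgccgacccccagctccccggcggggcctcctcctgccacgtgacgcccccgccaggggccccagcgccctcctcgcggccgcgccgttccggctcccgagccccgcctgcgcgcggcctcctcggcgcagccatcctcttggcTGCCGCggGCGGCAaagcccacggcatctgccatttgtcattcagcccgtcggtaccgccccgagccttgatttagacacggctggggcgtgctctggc
The printed MEG3 window holds 1 match, the printed SNRPN and PLAGL1 windows hold 2 each, and those of H19 and DIO3 hold none. SNRPN and PLAGL1 have further windows, and for both the printed one holds the most matches. The other SNRPN windows hold 0, 0 and 1 matches, and every other PLAGL1 window holds 0. CG pairs, the sites of DNA methylation, number 4 in the H19 window, 13 in that of MEG3, 12 in that of SNRPN, 22 in that of DIO3 and 32 in that of PLAGL1. RefSeq windows were found for 25 of the 37 genes, 55 windows in all, some of them shared or overlapping. The motif lies in 17 of the 55 (30.9%), belonging to 13 genes, and in 4477 of the 35116 windows of all genes (12.7%). Those windows belong to 27305 genes, fewer windows per gene than in the members, and no share by gene was computed for them. The 17 count some sequence more than once, as in the overlapping MEG3 windows and those shared by SNRPN and SNURF and by PLAGL1 and HYMAI. Median CG content was 15 pairs per window in the members and 11 over all windows. A match is a run of letters in this window and not a binding site, and no methylation was measured.

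Library depth ranged from 7290335 to 10053366 estimated counts, so that 3 counts corresponded to 0.297 to 0.409 CPM (counts scaled to the size of the library) in a single library. Of 10 embryonal carcinoma markers 7 were lower and 2, POU5F1 and NANOG, higher in TCam-2 than in 2102 EP with DMSO, and of 9 tested seminoma markers 7 were higher and 2, DND1 and LHX8, lower (edgeR). Over all genes tested 31.7% were higher and 30.8% lower in TCam-2. SOX2 had 468 ± 21.1 CPM in 2102 EP and 17.1 ± 2.28 in TCam-2 with DMSO, and SOX17 had 193 ± 6.66 CPM in TCam-2 and 2 counts over the 3 libraries of 2102 EP. With I-BRD9, 9 of 10 embryonal carcinoma markers fell in 2102 EP and 9 of 10 in TCam-2 (edgeR), against 18.6% and 16.5% of all genes tested. The summed level of these 10 markers was 3426 to 3504 CPM with DMSO and 1428 to 1496 CPM with I-BRD9 in 2102 EP, and 1690 to 1769 and 566.6 to 572.6 CPM in TCam-2. Of the other marker lists the 10 seminoma markers summed to 1620 to 2123 CPM in TCam-2 with DMSO and 1241 to 1408 with I-BRD9, and to 184.6 to 266.8 and 149.1 to 155.3 CPM in 2102 EP. The 8 stromal markers summed to 230.3 to 256.8 CPM and 132.7 to 156.8 CPM in 2102 EP and to 191.2 to 197.6 and 89.7 to 136 CPM in TCam-2, most of it THY1 in 2102 EP and COL1A2 in TCam-2. The 7 testis somatic markers summed to 14.2 to 33.4 CPM over all libraries. The 7 blood and immune markers summed to at most 5.20 CPM in any library, and HBB had no count. The part of these shifts in the results below was not tested. In these bulk libraries fewer cells of a type and less RNA per cell cannot be told apart.

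In 2102 EP, 18 of the 30 tested imprinted genes were called after I-BRD9 (edgeR's quasi-likelihood test, Benjamini-Hochberg adjusted p under 0.05), 9 higher and 9 lower. That is 60% of the members, against 36.8% of all genes tested, of which 18.2% were higher and 18.6% lower. DIO3, IGF2, IGF2R, KCNQ1OT1, L3MBTL1, NDN, PEG10, PLAGL1 and ZDBF2 rose, and BLCAP, COPG2, GNAS, GRB10, H19, MEG8, MEST, NLRP2 and SNRPN fell. Of the 17 paternally expressed genes 8 rose and MEST and SNRPN fell, and the median log2 fold change was 0.74, or 0.68 without DIRAS3, which had at most 3 counts in both groups. Among the 6 maternally expressed genes H19 and MEG8 fell, with a median of −0.16. Of the 7 genes of mixed choice, 5 fell and IGF2R rose. The members' median was 0.04, or −0.04 without DIRAS3, and the median of all genes was 0.0025.

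In TCam-2, 15 of the 30 were called, 9 higher and 6 lower. The share was 50%, against 31.8% of all genes tested (15.3% higher and 16.5% lower). COPG2, GNAS, KCNQ1OT1, NAP1L5, NDN, PEG10, PHLDA2, SLC22A18 and SNRPN rose, and BLCAP, DIO3, GRB10, H19, MEST and NLRP2 fell. Among the 17 paternally expressed genes 5 rose and 2 fell, and among the 6 maternally expressed genes PHLDA2 and SLC22A18 rose and H19 fell. Here the median was 0.57 in the paternally expressed genes and 0.98 in the maternally expressed ones (0.76 with MEG3 and MEG8 at their bound and ratio). MEG3 had 0 counts with DMSO and 5 with I-BRD9, and MEG8 had 2 and 5, too few to measure a response. The other maternally expressed genes were at −2.33 (H19), −0.02 (ZNF597), 0.84 (PHLDA2) and 1.39 (SLC22A18). No order of the classes in TCam-2 is read from these medians. The members' median log2 fold change was 0.29, against 0.0069 for all genes, and it was the same with the genes of 3 counts or fewer set to their counting ratio or bound.

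Called in both lines were 12 genes, 66.7% of the calls in 2102 EP and 80% of those in TCam-2. Over all genes tested 2890 were called in both, 50.4% and 58.3% of the calls of each line. KCNQ1OT1, NDN and PEG10 rose in both and H19, MEST, GRB10, BLCAP and NLRP2 fell in both, 8 of the 12 with the same direction (66.7%), against 90.6% of all genes called in both. COPG2, GNAS and SNRPN fell in 2102 EP and rose in TCam-2, and DIO3 did the reverse. Groups did not overlap for 19 of 30 members in 2102 EP (46.3% of all genes tested) and for 16 of 30 in TCam-2 (45.7%).

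**Figure D1:**
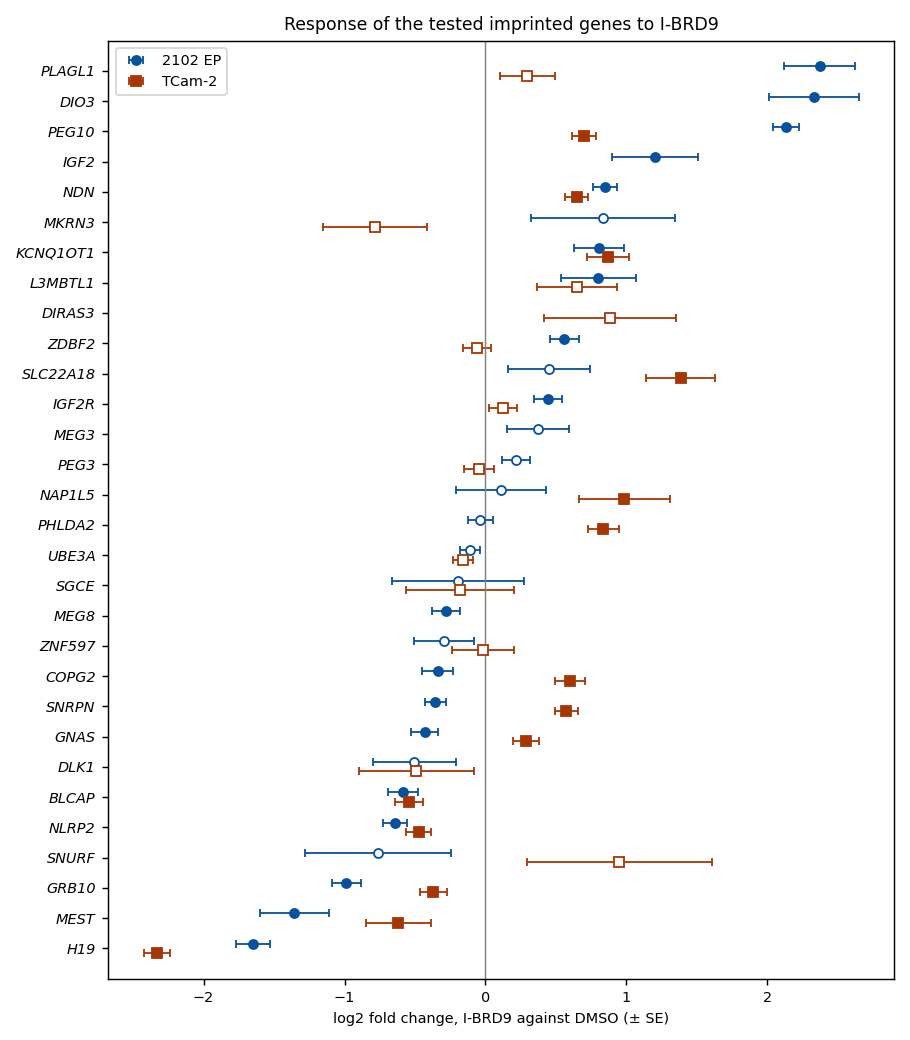
Log2 fold change of I-BRD9 against DMSO (± SE, edgeR) for the 30 tested imprinted genes in 2102 EP (circles) and TCam-2 (squares), ordered by the value in 2102 EP. Filled symbols passed an adjusted p of 0.05, a value is left out where a group had 3 counts or fewer over its 3 libraries, and among the plotted values H19 lies lowest in both lines while PLAGL1 and PEG10 lie high in 2102 EP.

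H19 (ENSG00000130600, chr11:1995176-2001470, minus strand), a maternally expressed non-coding RNA that is the host of a microRNA, had the largest fall of the 30 tested members in 2102 EP and was second to DIO3 among them in TCam-2. In 2102 EP its level was 30.5, 37.0 and 35.4 CPM with DMSO (replicates 1, 2 and 3, the order used throughout) and 12.3, 8.91 and 11.8 CPM with I-BRD9. The TCam-2 libraries held 732, 825 and 845 CPM with DMSO and 149, 163 and 166 CPM with I-BRD9. Every I-BRD9 library lay below every DMSO library of its line, and the TCam-2 libraries remained above those of 2102 EP under both conditions. The log2 fold change was −1.65 ± 0.12 (± SE throughout) in 2102 EP (edgeR adjusted p = 2.49e-10) and −2.33 ± 0.09 in TCam-2 (edgeR adjusted p = 1.19e-14).

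IGF2 (ENSG00000167244, chr11:2129112-2149603, minus strand), the growth factor gene that shares its enhancers with H19, was low in both lines. Its libraries in 2102 EP held 3.97, 2.95 and 6.65 CPM with DMSO and 9.51, 10.1 and 11.7 CPM with I-BRD9. All I-BRD9 libraries lay above all DMSO libraries, a log2 fold change of 1.21 ± 0.31 (edgeR adjusted p = 0.00343). TCam-2 had 2 IGF2 counts over the 3 DMSO libraries and 8 over the 3 I-BRD9 libraries, a ratio of 3.85 with a 95% counting interval of 0.769 to 37.2. In 5 of the 12 libraries the IGF2 count was not whole, which marks reads shared with another gene, and its exons overlap INS-IGF2 and IGF2-AS.

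IGF2R (ENSG00000197081, chr6:159969099-160113507, plus strand) encodes the receptor that takes up IGF2 for breakdown in lysosomes. In 2102 EP it had 42.3, 35.7 and 42.6 CPM with DMSO and 56.2, 53.7 and 54.3 CPM with I-BRD9, without overlap. The TCam-2 libraries held 38.4, 41.9 and 44.7 CPM with DMSO and 47.7, 45.3 and 43.0 CPM with I-BRD9, and these groups overlapped. On the log2 scale the change was 0.44 ± 0.10 in 2102 EP (edgeR adjusted p = 0.00122) and 0.12 ± 0.10 in TCam-2, where it did not pass (edgeR adjusted p = 0.387).

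GRB10 (ENSG00000106070, chr7:50590063-50793462, minus strand), an adaptor protein gene that restrains signalling from the insulin and IGF receptors, fell in both lines. In 2102 EP it had 49.1, 52.5 and 45.8 CPM with DMSO and 25.9, 24.8 and 23.6 CPM with I-BRD9. The corresponding levels in TCam-2 were 62.7, 56.5 and 59.6 CPM and 47.5, 42.4 and 48.2 CPM. In neither line did the groups overlap, and the log2 fold change was −0.99 ± 0.10 in 2102 EP (edgeR adjusted p = 8.21e-08) and −0.37 ± 0.10 in TCam-2 (edgeR adjusted p = 0.00457).

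PLAGL1 (ENSG00000118495, chr6:143940300-144064599, minus strand) encodes a zinc finger transcription factor of the imprinted gene network. It rose in 2102 EP from 1.26, 2.00 and 1.92 CPM with DMSO to 8.59, 10.5 and 7.70 CPM with I-BRD9. In TCam-2 its libraries held 10.0, 14.8 and 9.80 CPM with DMSO and 14.2, 13.4 and 15.0 CPM with I-BRD9. The groups of 2102 EP lay apart and those of TCam-2 overlapped, since DMSO replicate 2 was as high as the I-BRD9 libraries. Its change on the log2 scale was 2.37 ± 0.25 in 2102 EP (edgeR adjusted p = 1.19e-07) and 0.30 ± 0.19 in TCam-2 (edgeR adjusted p = 0.26).

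MEST (ENSG00000106484, chr7:130486171-130506465, plus strand), a paternally expressed gene of the hydrolase fold family, had 17.4, 16.7 and 13.3 CPM with DMSO and 3.82, 7.31 and 7.14 CPM with I-BRD9 in 2102 EP. In TCam-2 it had 18.3, 12.0 and 21.1 CPM with DMSO and 11.1, 8.65 and 13.6 CPM with I-BRD9, and there the groups overlapped, unlike those of 2102 EP. The log2 fold change was −1.36 ± 0.25 in 2102 EP (edgeR adjusted p = 0.000219) and −0.62 ± 0.23 in TCam-2 (edgeR adjusted p = 0.0471). The TCam-2 call was lost in 12 of 20 alternatives (edgeR adjusted p 0.0514 to 0.214). Among these were the fits without TCam-2 DMSO replicate 1 (0.134) or 3 (0.214), without TCam-2 I-BRD9 replicate 1 (0.118) or 2 (0.189), and without 2102 EP DMSO replicate 1 (0.0585), 2 (0.0654) or 3 (0.0514) or 2102 EP I-BRD9 replicate 2 (0.0514) or 3 (0.0526).

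COPG2 (ENSG00000158623, chr7:130506238-130668748, minus strand), whose 3′ end overlaps that of MEST on the other strand, encodes a subunit of the COPI vesicle coat. Levels in 2102 EP were 50.6, 50.1 and 51.1 CPM with DMSO and 32.6, 45.8 and 41.2 CPM with I-BRD9, and those in TCam-2 were 54.2, 47.8 and 45.4 CPM and 72.1, 72.1 and 79.6 CPM. The I-BRD9 libraries lay below the DMSO libraries in 2102 EP and above them in TCam-2. Log2 fold changes were −0.34 ± 0.11 in 2102 EP (edgeR adjusted p = 0.02) and 0.60 ± 0.11 in TCam-2 (edgeR adjusted p = 0.000152). The fall in 2102 EP no longer passed without DMSO replicate 1 (edgeR adjusted p = 0.0556), 2 (0.0507) or 3 (0.0577), without I-BRD9 replicate 1 (0.143), and when only the 6 libraries of that line were fitted (0.0571). Use of strand in the counting is not given in the sources used here, so reads of the overlap could belong to either gene.

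On chromosome 11 KCNQ1OT1 (ENSG00000269821, chr11:2608328-2699994, minus strand), a paternally expressed antisense RNA that silences its neighbours in cis, rose in both lines. In 2102 EP it had 10.1, 8.61 and 11.1 CPM with DMSO and 23.7, 13.8 and 15.1 CPM with I-BRD9. In TCam-2 it had 25.5, 30.7 and 26.8 CPM and 53.7, 48.4 and 49.9 CPM. No I-BRD9 library fell within the DMSO range of its line, although replicate 1 stood above the other I-BRD9 libraries in 2102 EP. The log2 fold changes were 0.81 ± 0.17 (edgeR adjusted p = 0.000907) and 0.87 ± 0.15 (edgeR adjusted p = 9.88e-05). Its host KCNQ1, a potassium channel gene, had 25 counts over all libraries and was not tested.

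PHLDA2 (ENSG00000181649, chr11:2928273-2929455, minus strand), a maternally expressed gene that limits placental growth, had 13.3, 14.0 and 15.1 CPM with DMSO and 27.2, 23.2 and 25.2 CPM with I-BRD9 in TCam-2. Levels in 2102 EP were 134, 118 and 121 CPM and 128, 111 and 124 CPM. The groups lay apart in TCam-2 and overlapped in 2102 EP, with log2 fold changes of 0.84 ± 0.11 (edgeR adjusted p = 3.58e-06) and −0.04 ± 0.09 (edgeR adjusted p = 0.78). SLC22A18 (ENSG00000110628, chr11:2899721-2925246, plus strand), a transporter gene beside it, had 3.90, 3.93 and 3.06 CPM with DMSO and 8.90, 10.6 and 9.16 CPM with I-BRD9 in TCam-2, and 1.83, 2.36 and 1.42 CPM and 2.86, 2.30 and 2.57 CPM in 2102 EP. It too was separated in TCam-2 and overlapped in 2102 EP, with log2 fold changes of 1.39 ± 0.24 (edgeR adjusted p = 0.000123) and 0.45 ± 0.29 (edgeR adjusted p = 0.246). PHLDA2, SLC22A18 and the antisense RNA KCNQ1OT1 all rose in TCam-2. KCNQ1, the other maternally expressed member of the region, had 10 counts over the DMSO libraries and 7 over the treated ones. ASCL2, CD81, TSSC4, OSBPL5 and NAP1L4, of the wider list given below, lie in the same part of chromosome 11. In TCam-2 ASCL2 (log2 fold change −1.82), CD81 (−0.80) and TSSC4 (−0.42) fell. OSBPL5 (0.13) and NAP1L4 (−0.08) did not pass there, so the rise was not shared by all genes of the region.

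**Figure D2:**
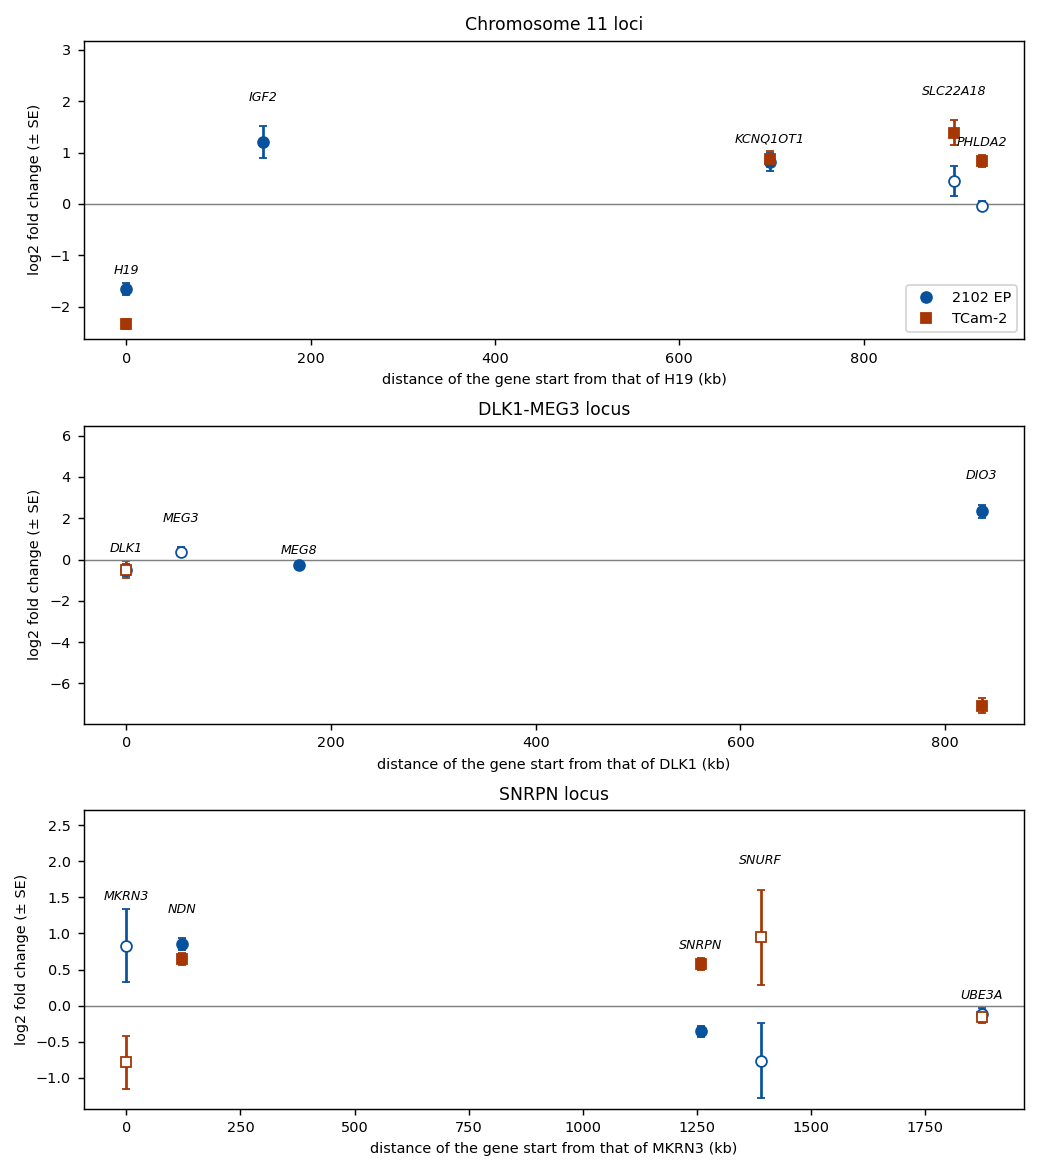
Log2 fold change of I-BRD9 against DMSO (± SE) against the distance of each gene's start, in kb, from that of H19, DLK1 or MKRN3 along 3 imprinted regions, with filled symbols for adjusted p under 0.05. Values resting on 3 counts or fewer in a group are left out except DIO3 in TCam-2, and neighbours such as H19 and IGF2 in 2102 EP, 148.1 kb apart, lie on opposite sides of 0.

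In the DLK1-MEG3 region of chromosome 14 a single gene moved in opposite directions in the lines. This was DIO3 (ENSG00000197406, chr14:101561351-101563452, plus strand), which encodes a deiodinase that inactivates thyroid hormone. It had 0.801, 0.707 and 0.639 CPM with DMSO and 3.82, 3.21 and 4.02 CPM with I-BRD9 in 2102 EP, a rise from low levels. In TCam-2 it had 12.8, 18.5 and 19.1 CPM with DMSO, and exactly 1 count in each I-BRD9 library. The groups lay apart in both lines, in opposite directions. The log2 fold change in 2102 EP was 2.33 ± 0.32 (edgeR adjusted p = 4.85e-06). In TCam-2 the sum went from 438 to 3 counts, a ratio of 151.6 with a 95% counting interval of 51.5 to 738 (edgeR adjusted p = 1.97e-12).

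MEG8 (ENSG00000225746, chr14:100894770-101038859, plus strand), a maternally expressed non-coding RNA that carries small nucleolar RNAs, had 138, 127 and 148 CPM with DMSO and 128, 112 and 99.2 CPM with I-BRD9 in 2102 EP. The groups overlapped, since I-BRD9 replicate 1 was as high as DMSO replicate 2, and the log2 fold change was −0.28 ± 0.10 (edgeR adjusted p = 0.0319). That call was lost with upper-quartile scaling (edgeR adjusted p = 0.0659) and without DMSO replicate 1 (0.0798) or 3 (0.132) or I-BRD9 replicate 2 (0.0849) or 3 (0.18). In TCam-2 MEG8 had 2 counts with DMSO and 5 with I-BRD9, over 3 libraries each. MEG3, a maternally expressed non-coding RNA with tumour-suppressing activity, had a mean of 234 ± 26.8 CPM (SD, n = 3) in the DMSO libraries of 2102 EP and 303 ± 85.5 CPM in the I-BRD9 libraries, where it did not pass (log2 fold change 0.37 ± 0.22, edgeR adjusted p = 0.236) except without I-BRD9 replicate 3 (0.56, 0.016). DLK1, the paternally expressed Notch ligand homologue, passed in neither line and its I-BRD9 values in 2102 EP, 5.04 to 6.11 CPM, lay below the DMSO values of 6.98 to 9.20 CPM.

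**Figure D3:**
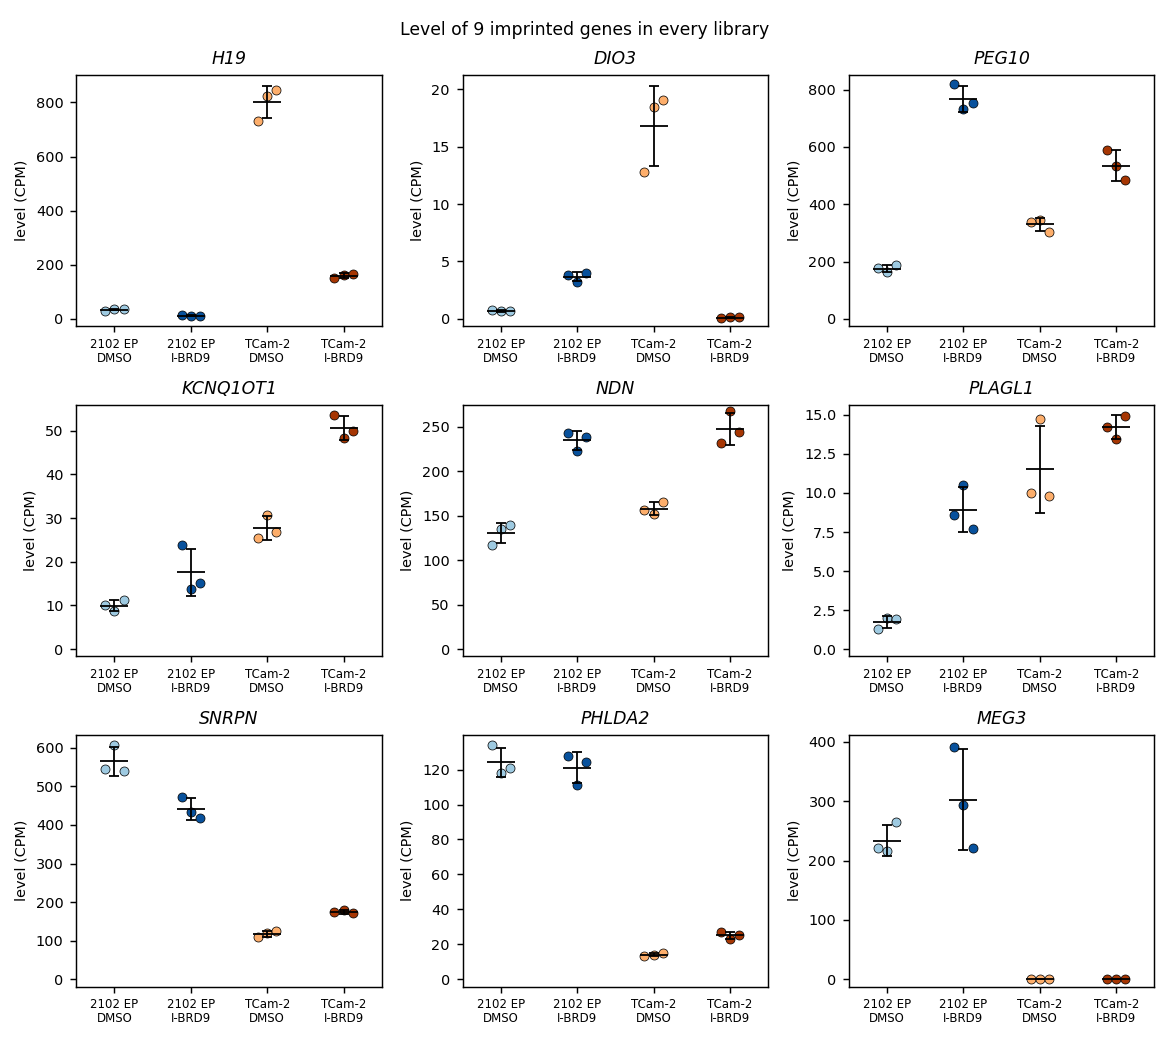
Level in CPM of 9 imprinted genes in each of the 12 libraries, by line and treatment, with points for libraries and bars for the mean ± SD of 3. DIO3 goes up in 2102 EP and to 1 count per library in TCam-2, and MEG3 is near 0 in all TCam-2 libraries.

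PEG10 (ENSG00000242265, chr7:94656325-94669695, plus strand), a gene of retrotransposon origin needed for the placenta, rose in both lines. In 2102 EP it had 176, 162 and 188 CPM with DMSO and 820.1, 732 and 754 CPM with I-BRD9, and in TCam-2 339.6, 346 and 303 CPM and 589.8, 532 and 484 CPM. Groups lay far apart in 2102 EP and apart in TCam-2, with log2 fold changes of 2.13 ± 0.09 (edgeR adjusted p = 4.6e-14) and 0.70 ± 0.09 (edgeR adjusted p = 1.72e-06). The level of 2102 EP lay below that of TCam-2 with DMSO and above it with I-BRD9. SGCE, which starts beside PEG10 on the other strand, had between 0.545 and 3.67 CPM in all libraries and passed in neither line.

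NDN (ENSG00000182636, chr15:23685400-23687330, minus strand), a MAGE family gene of the Prader-Willi region on chromosome 15, rose in both lines. Its libraries in 2102 EP held 118, 134 and 139.5 CPM with DMSO and 243, 223 and 239 CPM with I-BRD9, and those in TCam-2 156, 152 and 166 CPM and 232, 267 and 244 CPM. The treated libraries of both lines lay above all untreated ones, and the log2 fold changes were 0.85 ± 0.08 (edgeR adjusted p = 3.58e-08) and 0.65 ± 0.08 (edgeR adjusted p = 1.89e-06). SNRPN (ENSG00000128739, chr15:24823637-24978723, plus strand), a splicing protein gene of the same region, had 546, 609 and 540.2 CPM with DMSO and 474, 434 and 417 CPM with I-BRD9 in 2102 EP. In TCam-2 it had 109, 119 and 124 CPM and 173, 179.7 and 171 CPM. The I-BRD9 libraries were all lower in 2102 EP and all higher in TCam-2, with log2 fold changes of −0.35 ± 0.08 (edgeR adjusted p = 9e-04) and 0.57 ± 0.08 (edgeR adjusted p = 6.88e-06). SNRPN shares exons with SNURF and with the long transcript SNHG14, and its count was not whole in 7 of 12 libraries. UBE3A, a ubiquitin ligase gene imprinted in neurons, had 149 to 190.1 CPM over all libraries and passed in neither line. SNURF and MKRN3 had at most 5.02 CPM in any library and did not pass, apart from MKRN3 in TCam-2 without I-BRD9 replicate 2 (log2 fold change −1.16, edgeR adjusted p = 0.0488).

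GNAS (ENSG00000087460, chr20:58839718-58911192, plus strand), the gene of the stimulatory G protein α subunit with several imprinted promoters, had 343, 352 and 336 CPM with DMSO and 216, 266 and 281 CPM with I-BRD9 in 2102 EP. Levels in TCam-2 were 557, 532 and 596 CPM and 667, 627 and 766 CPM. The groups lay apart with opposite directions, and the log2 fold changes were −0.43 ± 0.09 (edgeR adjusted p = 0.000937) and 0.29 ± 0.09 (edgeR adjusted p = 0.0202). The call in TCam-2 did not hold without DMSO replicate 1 (edgeR adjusted p = 0.0734) or 2 (0.105) or I-BRD9 replicate 3 (0.132). Because the promoters share 3′ exons, a 3′ end count cannot assign the reads of GNAS to any of them.

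BLCAP (ENSG00000166619, chr20:37492472-37527931, minus strand), a host gene with the imprinted gene NNAT in its intron, fell in both lines. In 2102 EP it had 44.7, 38.3 and 38.1 CPM with DMSO and 28.1, 25.7 and 27.2 CPM with I-BRD9, and in TCam-2 78.6, 67.0 and 70.3 CPM and 53.2, 47.2 and 47.8 CPM. Neither line showed overlap, and the log2 fold changes were −0.58 ± 0.11 (edgeR adjusted p = 0.000153) and −0.54 ± 0.10 (edgeR adjusted p = 0.000187). NLRP2 (ENSG00000022556, chr19:54953130-55001142, plus strand), a gene of the NLR family whose maternal mutations disturb imprinting in offspring, fell as well. Its level was 335, 358 and 357 CPM with DMSO and 244, 239 and 190.3 CPM with I-BRD9 in 2102 EP, and 136, 150.4 and 141 CPM and 107, 100.2 and 99.7 CPM in TCam-2. All treated libraries lay below the untreated ones of their line, with log2 fold changes of −0.64 ± 0.09 (edgeR adjusted p = 3.81e-06) and −0.47 ± 0.09 (edgeR adjusted p = 0.000237).

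ZDBF2 (ENSG00000204186, chr2:206274663-206314438, plus strand), a zinc finger protein gene, had 33.0, 30.3 and 35.3 CPM with DMSO and 54.0, 44.6 and 46.9 CPM with I-BRD9 in 2102 EP, and 49.7, 49.1 and 47.5 CPM and 46.2, 50.6 and 43.8 CPM in TCam-2. It was separated in 2102 EP and overlapped in TCam-2, with log2 fold changes of 0.56 ± 0.10 (edgeR adjusted p = 0.000194) and −0.06 ± 0.10 (edgeR adjusted p = 0.714). L3MBTL1 (ENSG00000185513, chr20:43489442-43550950, plus strand), a chromatin-compacting protein gene, had 4.46, 4.48 and 3.83 CPM with DMSO and 9.27, 6.81 and 6.36 CPM with I-BRD9 in 2102 EP, and 3.07, 2.97 and 2.57 CPM and 4.03, 3.12 and 6.38 CPM in TCam-2. Groups lay apart in both lines, and the log2 fold changes were 0.80 ± 0.27 (edgeR adjusted p = 0.0213) and 0.65 ± 0.28 (edgeR adjusted p = 0.0875). The 2102 EP call was lost without DMSO replicate 3 (edgeR adjusted p = 0.0672) or I-BRD9 replicate 1 (0.0957), and TCam-2 passed without I-BRD9 replicate 2 (log2 fold change 0.84, edgeR adjusted p = 0.0364).

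NAP1L5 (ENSG00000177432, chr4:88695915-88697829, minus strand), a nucleosome assembly protein family gene, had 4.49, 6.26 and 3.92 CPM with DMSO and 9.10, 4.92 and 15.2 CPM with I-BRD9 in TCam-2, and 5.61, 8.37 and 7.16 CPM and 8.18, 8.71 and 5.91 CPM in 2102 EP. Both pairs of groups overlapped, and I-BRD9 replicate 3 of TCam-2 was the highest library. Its log2 fold change was 0.99 ± 0.32 in TCam-2 (edgeR adjusted p = 0.0281), a call lost without DMSO replicate 1 (edgeR adjusted p = 0.101) or 3 (0.111) or I-BRD9 replicate 1 (0.0543) or 3 (0.201), and when only the 6 libraries of that line were fitted (0.0929). In 2102 EP it was 0.11 ± 0.32 (edgeR adjusted p = 0.825).

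The tested members called in neither line were MEG3, DLK1, PEG3, SGCE, SNURF, MKRN3, UBE3A, ZNF597 and DIRAS3. PEG3, a zinc finger gene, reached log2 fold changes of 0.22 ± 0.10 in 2102 EP (edgeR adjusted p = 0.101, and 0.0369 without DMSO replicate 3) and −0.05 ± 0.11 in TCam-2. ZNF597 lay between 4.75 and 8.13 CPM in all libraries. DIRAS3, a RAS-related growth suppressor gene, had 1 and 2 counts in the 2102 EP groups and 35 and 67 in those of TCam-2 (log2 fold change 0.89 ± 0.47, edgeR adjusted p = 0.161). Of the untested genes ZIM2 had 41.2, DDC 64, HYMAI 63, NNAT 12 and MAGEL2 10 counts over all libraries. DDC, an aromatic amino acid decarboxylase gene beside GRB10, had 2.29, 2.00 and 1.15 CPM with DMSO and 0.273, 0.701 and 0.223 CPM with I-BRD9 in 2102 EP. Its groups lay apart there. In a fit that also kept genes failing the low-count filter, the log2 fold change of DDC in 2102 EP was −2.11 (edgeR adjusted p = 0.0305). DDC was also lower in TCam-2 than in 2102 EP in that fit, with DMSO (edgeR adjusted p = 0.0029) and with I-BRD9 (0.0332). With I-BRD9 so were MAGEL2 (edgeR adjusted p = 0.0397), at 0 counts against 8, and NNAT (0.0328), at 0 against 9.

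**Figure D4:**
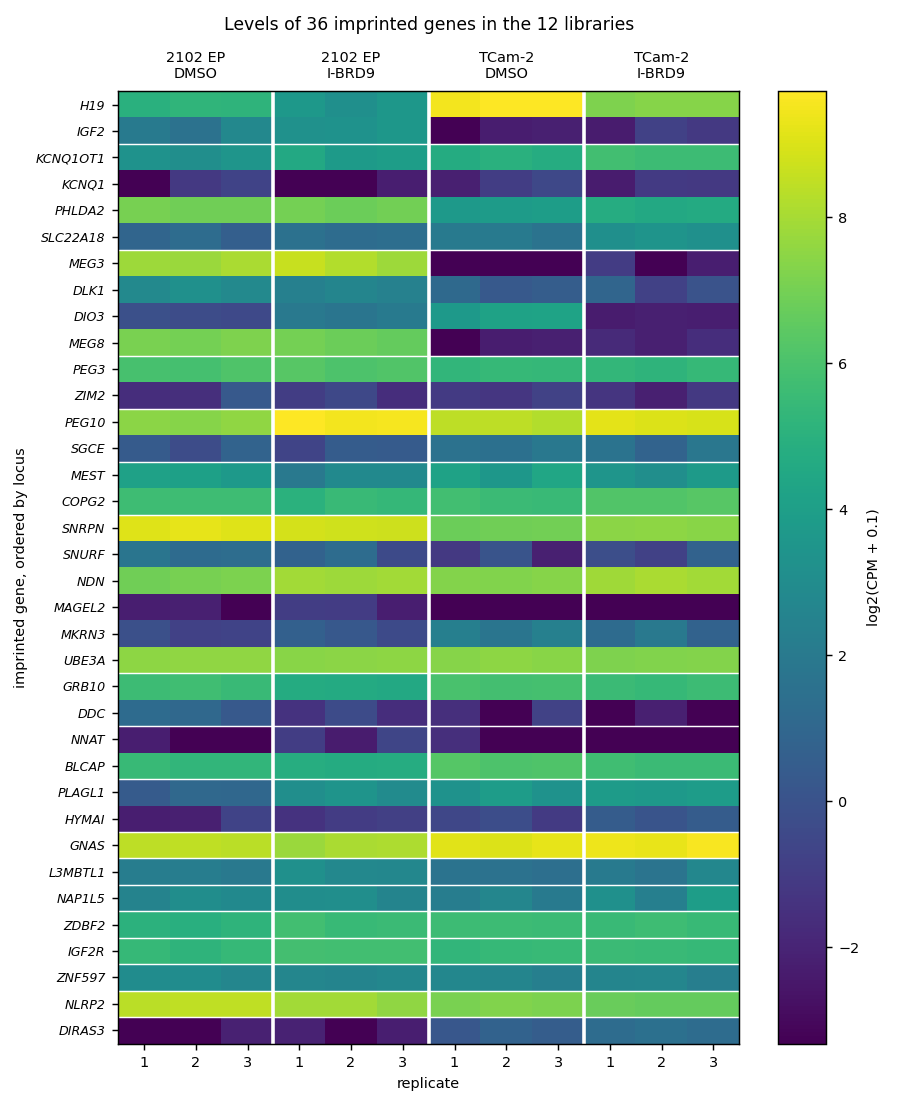
Level as log2(CPM + 0.1) of the 36 imprinted genes with at least 10 counts, in columns of 3 replicates for each line and treatment and in rows ordered by locus. The MEG3 and MEG8 rows are bright in 2102 EP and dark in TCam-2, H19 is brighter in TCam-2, and DIO3 changes in opposite directions.

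The difference of the I-BRD9 response between the lines (log2 fold change in TCam-2 minus that in 2102 EP) was tested in the same model. It passed for 10 of the 30 members, 5 higher and 5 lower, or 33.3%, against 13.1% of all genes tested (5.90% higher and 7.19% lower). COPG2 (0.94 ± 0.16, edgeR adjusted p = 0.000166), SNRPN (0.93 ± 0.11, 2.9e-06), PHLDA2 (0.87 ± 0.14, 0.00014), GNAS (0.72 ± 0.13, 0.000522) and GRB10 (0.62 ± 0.14, 0.00388) had the more positive response in TCam-2. For PLAGL1 (−2.07 ± 0.32, edgeR adjusted p = 7.47e-05), PEG10 (−1.43 ± 0.12, 2.27e-08), H19 (−0.68 ± 0.15, 0.00324) and ZDBF2 (−0.62 ± 0.15, 0.00534) it was the more negative. DIO3 also differed (edgeR adjusted p = 8.22e-12), and its fitted difference of −9.40 depends on a group of 3 counts. GRB10 and H19 moved the same way in both lines, and only the size differed, with the larger fall of GRB10 in 2102 EP and that of H19 in TCam-2.

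Other genes did not show a difference past the threshold. KCNQ1OT1 differed by 0.07 ± 0.23 with a 95% interval of −0.42 to 0.55, BLCAP by 0.04 ± 0.14 with −0.26 to 0.34, NLRP2 by 0.17 ± 0.12 with −0.09 to 0.42 and NDN by −0.20 ± 0.12 with −0.44 to 0.04. These intervals bound the difference and do not show that the responses were equal. MKRN3 (difference −1.62 ± 0.63, edgeR adjusted p = 0.0985), SLC22A18 (0.94 ± 0.38, 0.119), MEST (0.74 ± 0.34, 0.171) and IGF2R (−0.32 ± 0.14, 0.147) had 95% intervals outside 0 and did not pass the adjustment over all genes. The rise of IGF2R and L3MBTL1 in 2102 EP and that of SLC22A18 and NAP1L5 in TCam-2 was therefore not shown to belong to 1 line.

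**Figure D5:**
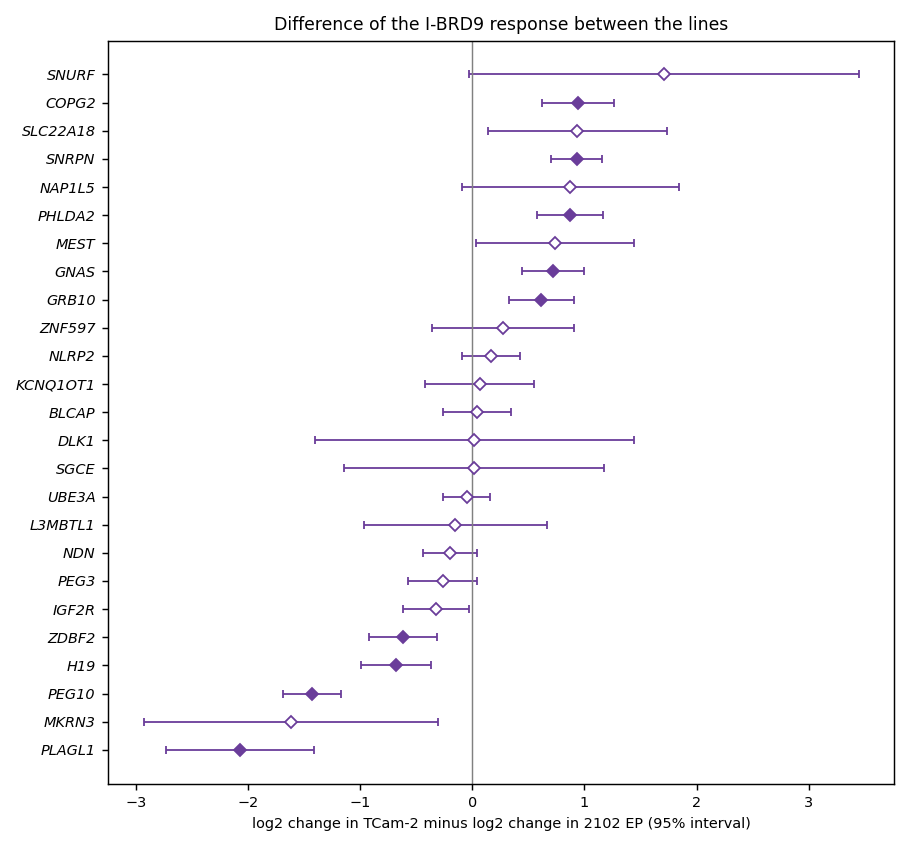
Log2 fold change in TCam-2 minus that in 2102 EP, with its 95% interval, for the 25 tested imprinted genes with more than 3 counts in every group of the contrast. Filled diamonds passed an adjusted p of 0.05, and PLAGL1, PEG10, H19 and ZDBF2 lie below 0 while COPG2, SNRPN, PHLDA2, GNAS and GRB10 lie above it.

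Between the lines with DMSO, 23 of 30 members were called (76.7%, against 62.6% of all genes tested), 14 higher and 9 lower in TCam-2 (31.7% and 30.8% of all genes). Groups did not overlap for 25 of 30 (67.6% of all genes). H19 was 4.54 ± 0.11 higher in TCam-2 on the log2 scale (edgeR adjusted p = 1.57e-19), DIO3 4.52 ± 0.29 (4.99e-12) and MKRN3 2.84 ± 0.45 (8.71e-06). PLAGL1 was higher there by 2.74 ± 0.25 (edgeR adjusted p = 1.72e-09) and KCNQ1OT1 by 1.48 ± 0.17 (9.52e-08). PHLDA2 (−3.13 ± 0.10, edgeR adjusted p = 4.31e-17), SNRPN (−2.27 ± 0.08, 1.71e-16), SNURF (−2.38 ± 0.60, 0.00149) and DLK1 (−2.32 ± 0.34, 2.93e-06) were lower in TCam-2. The 2 small differences of GRB10 and NDN (both 0.28) were lost, that of NDN without 2102 EP DMSO replicate 1 (edgeR adjusted p = 0.0618) and that of GRB10 without 2102 EP DMSO replicate 3 (0.0673) or TCam-2 DMSO replicate 1 (0.0522).

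Of the members, the non-coding RNAs MEG3 and MEG8 had the largest fold differences between the lines with DMSO. MEG3 had 5828 counts over the 2102 EP DMSO libraries and none over those of TCam-2, where its level was at least 2021-fold lower, taking 3 counts over the group as the floor. MEG8 had 3432 counts against 2, a ratio of 1786 with a 95% counting interval of 493.9 to 14750. IGF2 had 112 counts against 2 (ratio 58.3, 15.8 to 487). Its reads are partly shared, as given above. INS had 193 counts in these libraries of 2102 EP and 305 in those of TCam-2, and its count was not whole in 11 libraries. How reads divide between INS, INS-IGF2 and IGF2 was not tested. DIRAS3 had 1 count in 2102 EP and 35 in TCam-2 (ratio 33.6, 5.65 to 1366). DLK1, on the other side of the region's control element, was at 7.74 ± 1.27 CPM in 2102 EP and 1.55 ± 0.509 CPM in TCam-2 (mean ± SD, n = 3). Intervals and floors of counts cover counting error only.

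With I-BRD9, 25 of 30 members differed between the lines (83.3%, against 62.2% of all genes tested), 12 higher and 13 lower in TCam-2 (31.1% and 31.1% of all genes), and groups did not overlap for 24 of 30 (66.3% of all genes). DIO3 was here the lower in TCam-2, with 3 counts against 96 (ratio 33.0, 95% counting interval 10.9 to 162.6), and PEG10 was lower by −0.52 ± 0.09 (edgeR adjusted p = 1.91e-05). Both had been higher in TCam-2 with DMSO, and the 2 comparisons of the lines share no library. The calls of IGF2R, MKRN3, L3MBTL1 and UBE3A in this comparison were each lost when a library was left out. IGF2R was lost without TCam-2 I-BRD9 replicate 2 (edgeR adjusted p = 0.0509) or 3 (0.0685), and MKRN3 without 2102 EP I-BRD9 replicate 3 (0.0801) or TCam-2 I-BRD9 replicate 2 (0.119). L3MBTL1 was lost without 2102 EP I-BRD9 replicate 1 (edgeR adjusted p = 0.0951) or TCam-2 I-BRD9 replicate 1 (0.0717) or 2 (0.113). UBE3A was lost without 2102 EP I-BRD9 replicate 3 (edgeR adjusted p = 0.0737), TCam-2 I-BRD9 replicate 1 (0.0859) or 2 (0.0544), when only the 6 I-BRD9 libraries were fitted (0.0571) and with no low-count filter (0.0725).

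Of 28 genes known to keep or erase imprints, 25 were tested, and in 2102 EP 2 rose and 14 fell (64% called, against 36.8% of all genes tested, with 18.6% lower), with a median log2 fold change of −0.67. In TCam-2 1 rose and 9 fell (40% called, against 31.8% of all genes, with 16.5% lower), with a median of −0.26. ZFP57 and KHDC3L had 0 counts in both TCam-2 groups, and ZFP42 had 1 count with DMSO and 0 with I-BRD9. DPPA3 had 10 and 3 counts there. The TCam-2 responses of these genes could not be measured, though they count among the 25. ZFP57 had 100 counts over the DMSO libraries of 2102 EP. DPPA3, which protects imprints from demethylation in the early embryo, fell in 2102 EP (log2 fold change −4.42 ± 0.39, edgeR adjusted p = 2.68e-05, reads shared in 8 libraries), as did DNMT3L, the cofactor of imprint establishment (−3.81 ± 0.20, 1.76e-12). The methyltransferase genes DNMT3B (−1.81 ± 0.09) and DNMT3A (−1.31 ± 0.10), the oocyte factor gene NLRP7 (−1.77 ± 0.11) and ZFP42 (−1.51 ± 0.19) fell too. In TCam-2 NLRP7 (−2.54 ± 0.12, edgeR adjusted p = 4.1e-13), DNMT3L (−1.73 ± 0.21), HELLS (−0.92 ± 0.08), the dioxygenase gene TET2 (−0.91 ± 0.20) and UHRF1 (−0.83 ± 0.17) fell, and ZNF445, which guards imprints together with ZFP57, rose (0.74 ± 0.15, edgeR adjusted p = 0.000572). ZNF445 also rose in 2102 EP (0.46 ± 0.15, edgeR adjusted p = 0.0164), where HELLS (−1.16 ± 0.08) and UHRF1 (−0.67 ± 0.16) also fell. DNMT3B and ZFP42 also stand among the embryonal carcinoma markers above.

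Of a list of 52 further genes reported as imprinted, 47 were among the genes measured and 22 were tested. Whether each of them is imprinted in human cells was not tested here. Of the 22, 3 rose and 5 fell in 2102 EP and 1 rose and 5 fell in TCam-2. These shares of 36.4% and 27.3% lay near or below those of all genes tested (36.8% and 31.8%). OSBPL5 (0.75 ± 0.16), TFPI2 (0.65 ± 0.16) and HM13 (0.35 ± 0.10) rose in 2102 EP, and the trophoblast factor gene ASCL2 (−2.03 ± 0.45), the receptor kinase gene AXL (−0.90 ± 0.26) and SNHG14 (−0.64 ± 0.11, reads shared in 11 libraries) were among those that fell (edgeR). ASCL2 was low in 2102 EP, with a mean of 2.10 CPM with DMSO and 0.525 CPM with I-BRD9. AXL, called at an edgeR adjusted p of 0.00872, did not pass when DMSO replicate 2 was left out (0.054). In TCam-2 TFPI2 rose from low levels (2.33 ± 0.47), and ATP10A (−3.01 ± 0.28), ASCL2 (−1.82 ± 0.34), CD81 (−0.80 ± 0.08), ZNF331 (−0.74 ± 0.11) and TSSC4 (−0.42 ± 0.10) fell. Of 8 tested host and partner genes of the members, LIN28A, LIN28B and IGF2BP1 fell in 2102 EP (37.5%, near the 36.8% of all genes tested). In TCam-2 IGF2BP2 and IGF1R rose and LIN28A and LIN28B fell (50%, against 31.8% of all genes tested). LIN28A also stands among the embryonal carcinoma markers above. These partner genes were chosen for mention after their values were seen.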

How the data were processed

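The authors deposited 1 table of estimated counts, with a row per gene and a column for each of the 12 libraries. Per the submitters' processing notes the tools were Trim Galore, STAR 2.7.11b, Salmon 1.9.0, R 4.2.0 and DESeq2, on GRCh38. Annotation, order of steps and strand setting: not given in the sources used here. Per the labels RNA came from an RNeasy kit and libraries from a QuantSeq 3′ kit, whose counts do not depend on transcript length.

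Estimated counts were rounded and tested with edgeR 4.0.16 (limma 3.58.1, R 4.3.3): TMM scaling, filterByExpr, 4 group means over all 12 libraries, a robust quasi-likelihood fit with 8 residual degrees of freedom, and Benjamini-Hochberg adjustment over all 15614 genes of a comparison. Genes were called at an adjusted p under 0.05. CPM are counts scaled to the TMM-adjusted library size. Group means are ± SD (n = 3) and log2 fold changes ± SE. This SE was derived from the test, as the absolute log2 fold change divided by the square root of its F value. The 95% intervals of log2 values rest on it. It is approximate at low counts: for IGF2 it was 0.91 in TCam-2 and 0.85 for the difference, which contains that response. A group with no count was set to a floor of 3 counts, and ratios over 1 to 3 counts carry exact 95% intervals. Values are printed per library for members called with I-BRD9 in either line and reaching 5 CPM in a group, and from the 2 wider lists for up to 6 called genes per line with at least 5 CPM in a group of either line. Some of these list genes are also given in the other line. Positions are from GENCODE release 29 on GRCh38, in which all 37 members were found. Exons of 26 overlap another gene, 21 of them on the opposite strand. The scripts were tested on simulated data. Alternatives were DESeq2 1.42.0, other scalings, filters, blocks and samples. The members, lists and tests were chosen with earlier results of these data known.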

Additional observations from a re-analysis of the deposited data

Results flagged for a closer look

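The response to I-BRD9 differed between the lines in 10 of the 30 tested imprinted genes by the interaction term of the edgeR model, given here as the log2 fold change in TCam-2 minus that in 2102 EP. COPG2 (0.94), SNRPN (0.93) and GNAS (0.72) fell in 2102 EP and rose in TCam-2, and PHLDA2 (0.87) passed in TCam-2 alone of the single-line tests. GRB10 (0.62) fell in both, by more in 2102 EP, and H19 (−0.68) fell in both, by more in TCam-2. PEG10 (−1.43) rose in both, by more in 2102 EP. PLAGL1 (−2.07) and ZDBF2 (−0.62) rose in 2102 EP and did not pass in TCam-2. DIO3 had the fitted difference of −9.40, which rests on 3 counts in the TCam-2 libraries with I-BRD9. The edgeR adjusted p of the 10 genes ran from 8.22e-12 (DIO3) to 0.00534 (ZDBF2), and all 10 were called in the 19 alternatives that could give this contrast. No cause of these differences was tested, and medium and line cannot be told apart.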

How the results depend on the processing

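Each comparison was repeated with DESeq2, with DESeq2's size factors or upper-quartile scaling in edgeR, with no low-count filter or a minimum of 10 counts in all, with a block, on the 6 libraries compared (not for the difference), and without each of the 12 libraries in turn. No called imprinted gene reversed its direction in any of these. Of the calls with I-BRD9, 15 of 18 in 2102 EP and 12 of 15 in TCam-2 were kept in every one of 20 alternatives, as were all 10 differences of response in 19. Between the lines 21 of 23 were kept with DMSO and 21 of 25 with I-BRD9. Leaving out 1 library gave 8 to 10 members higher and 7 to 9 lower in 2102 EP, and 7 to 10 higher and 5 to 6 lower in TCam-2. The difference had 5 to 6 higher and 5 lower. TCam-2 against 2102 EP had 13 to 14 higher and 9 lower with DMSO, and 11 to 12 higher and 10 to 13 lower with I-BRD9. NAP1L5 gained calls for the difference (1.18, edgeR adjusted p = 0.0416) and between the treated lines (0.66, edgeR adjusted p = 0.0356) without TCam-2 I-BRD9 replicate 2. In TCam-2 MEST was also lost with upper-quartile scaling (edgeR adjusted p = 0.0586). The genes that keep or erase imprints had 1 to 2 members higher and 11 to 15 lower in 2102 EP, and 1 higher and 8 to 11 lower in TCam-2, over all alternatives. The cause of these changes was not tested.

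Replicate numbers are shared by the groups, but libraries of the same number did not deviate together (correlation of deviations −0.23 to 0.27 over 18 pairs, 5 of 12 libraries closest to their own number). With the replicate block 9 members were called higher and 9 lower in 2102 EP, 8 and 5 in TCam-2, and 5 and 5 for the difference. TCam-2 against 2102 EP had 14 higher and 9 lower with DMSO, and 12 higher and 13 lower with I-BRD9. Of the TCam-2 calls MEST (edgeR adjusted p = 0.0592) and NAP1L5 (0.058) did not pass with that block. A block by the run of library codes gave the same counts, with 0.053 and 0.0615 for these genes (edgeR adjusted p). Depth limits SNURF, MKRN3, DIRAS3 and the 6 untested genes, and IGF2, MEG3 and MEG8 in TCam-2, whose response was not measurable at a few counts a group.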
